A study of Mus musculus and Homo sapiens
Mus musculus with 12 samples.

Results

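Among the nuclei of the 2 preindexed libraries of frozen mouse brain, 280 of 4298 carried the transcripts of the kidney proximal tubule, the segment of the nephron that takes back most of the filtered solutes. They were chosen by their measured values. A nucleus was taken when Slc34a1, Lrp2, Cubn and Slc5a12 together made up at least 20 of every 10000 UFIs and Slc12a1 with Slc12a3 stayed under 15 per 10000. A UFI (unique fragment identifier) counts 1 cDNA fragment made by random primers in single-nucleus total RNA sequencing (snHH-seq), so introns and long genes add to a count, and levels are compared between nuclei and never between genes. By this rule 164 of 2300 nuclei were members in the first library, Index frozen 1 (7.13%, 95% exact binomial interval 6.11 to 8.26), and 116 of 1998 in the second, Index frozen 2 (5.81%, 4.82 to 6.92). Intervals cover counting error only.

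The brain experiment held 7 libraries with 11198 nuclei, grouped by storage (frozen or fresh tissue) and by the primer of reverse transcription (with or without a preindex, a barcode given to nuclei before they entered droplets). The tissue in every label was mouse brain, and the methods name wild-type C57BL/6J males. The levels of Xist and of Y-linked genes, given below, do not match males. The labels give neither the sex nor whether libraries came from separate animals, and in 4 of the 7 the preindex named in the title conflicts with the treatment field. Titles were followed here. Barcodes were 40 bases long in the libraries with an index in the title and 30 bases long in the others. Depth was 26292939 UFIs in Index frozen 1 and 31796326 UFIs in Index frozen 2, and from 8605214 to 42439731 over all 7 libraries.

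Proximal tubule cells carry a brush border with transporters for phosphate, glucose and amino acids, and a pair of giant receptors, megalin (Lrp2) and cubilin (Cubn), that pull filtered proteins back into the cell. They also secrete organic ions and drugs, make glucose and break down amino acids. The tubule has segments S1, S2 and S3 that differ in their transporters, and in mice many of its genes differ between the sexes. The thick ascending limb and the distal convoluted tubule lie further along the nephron and reabsorb salt through Slc12a1 and Slc12a3.

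The last 10 bases of the 40-base barcode, taken here as the preindex, separated these nuclei from the brain nuclei. The barcodes below are shown because each pair came from a single library and shared the first 30 bases, taken here as the droplet barcode. The capitals mark the preindex, which is the only difference within a pair.
Index frozen 1, brain nucleus: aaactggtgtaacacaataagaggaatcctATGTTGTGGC
Index frozen 1, proximal tubule nucleus: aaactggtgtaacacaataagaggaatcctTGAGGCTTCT
Index frozen 2, brain nucleus: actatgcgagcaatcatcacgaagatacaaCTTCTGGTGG
Index frozen 2, proximal tubule nucleus: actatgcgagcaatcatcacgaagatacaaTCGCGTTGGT
In the first pair the brain nucleus had 329 UFIs per 10000 on a list of 10 neuron genes and 0.952 on the 4 proximal genes. Its partner had 4.72 on the neuron list and 20.5 on the proximal genes. In the second pair the brain nucleus had 299 and 0.799, and the proximal tubule nucleus had 19.6 and 47.7. Within these pairs the nuclei differed in the neuron list, which the rule did not use, as well as in the proximal genes.

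Index frozen 1 held 44 preindexes, and tubule nuclei, that is proximal, distal or over both limits, occurred under 28 of them, with proximal tubule nuclei under 26. Index frozen 2 held 42 preindexes, of which 26 held tubule nuclei and 24 held proximal tubule nuclei. Under the 28 preindexes of the first library lay 271 nuclei, made up of 164 proximal tubule nuclei, 80 over both limits, 9 distal and 18 of neither kind. Under the 26 of the second lay 213 nuclei, made up of 116, 76, 13 and 8. The 16 remaining preindexes held 2029 nuclei in the first library and 1785 in the second, and by this sorting no tubule nucleus. The preindexes were sorted by whether they held tubule nuclei, and their neuron content was not used for this. On the neuron list the nuclei of the 16 preindexes had a median of 269 and 271 UFIs per 10000, the proximal tubule nuclei 1.44 and 1.41, and the 18 and 8 nuclei of neither kind 3.69 and 1.99. The tubule nuclei and the brain nuclei thus lay under separate preindexes.

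The proximal tubule nuclei were spread thinly. A preindex with tubule nuclei held 1 to 30 nuclei in Index frozen 1 and 1 to 20 in Index frozen 2, while the other preindexes held 10 to 248 and 15 to 202. The fullest of them in the first library was AGATGGCTGG with 30 nuclei, 19 of them proximal, followed by GGTTAGGTTG with 17 of 25 and TACTGGCTGC with 15 of 20. Both libraries used largely the same set: 24 of the 30 preindexes with tubule nuclei in either library were found with them in both, as were 23 of the 27 with proximal tubule nuclei and all 16 of the others. No preindex held tubule nuclei in one library and brain nuclei alone in the other. Of the 30 preindexes, 0 occurred among the 81 of the preindexed fresh library, as did 1 of the 16.

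**Figure D1:**
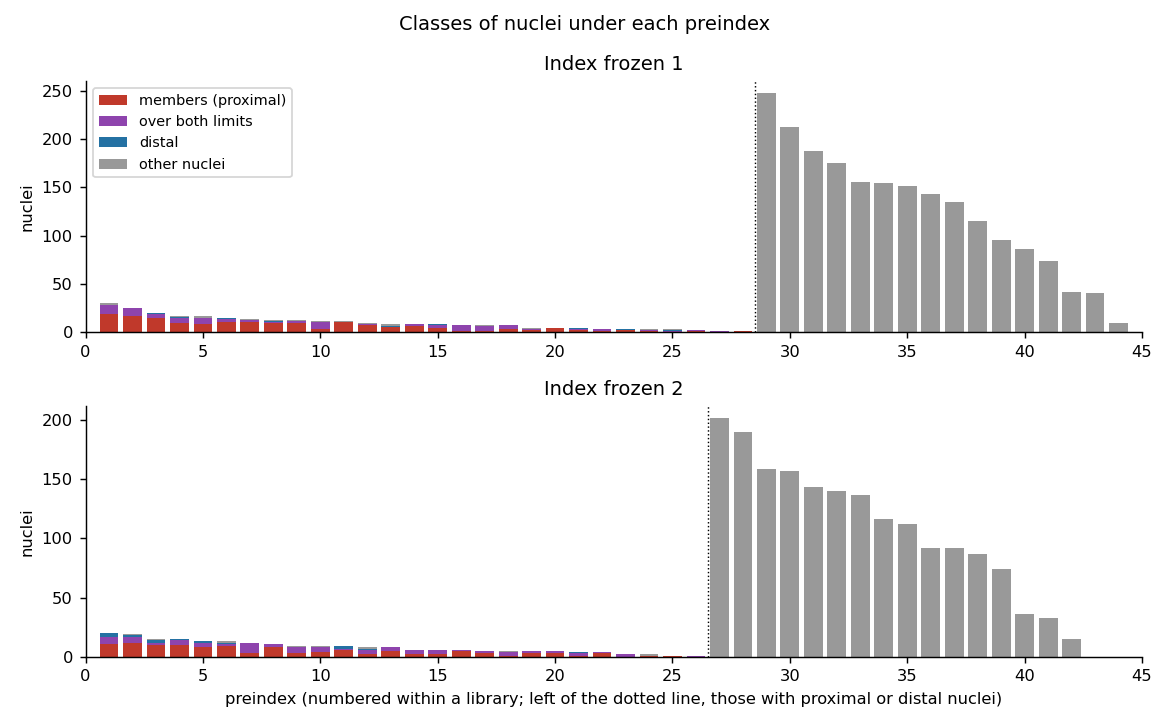
Nuclei under each preindex (bars, in number of nuclei, stacked by class) in Index frozen 1 (top) and Index frozen 2 (bottom). Left of the dotted line are the 28 and 26 preindexes with tubule nuclei, which hold at most 30 nuclei each, and to its right the 16 preindexes with none.

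Of 2200 droplet barcodes in Index frozen 1, 96 held several nuclei and 13 held a proximal tubule nucleus with a brain nucleus. In Index frozen 2 these numbers were 1926, 69 and 4. The brain nuclei under such droplet barcodes had a median of 0.819 and 0.512 UFIs per 10000 on the proximal genes and reached 2.53 and 0.799. The proximal tubule nuclei under them, 14 and 4 in number, had a median of 2.58 and 5.47 UFIs per 10000 on the neuron list. Those that shared no droplet barcode with a brain nucleus had 1.39 and 1.13. The part of shared droplet barcodes in other values was not tested. The libraries had 2 whole barcodes in common, neither of a proximal tubule nucleus. They had 35 droplet barcodes in common, which held 0 and 3 proximal tubule nuclei, so a shared droplet barcode does not by itself show a shared droplet.

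No nucleus met the rule in the other 5 brain libraries, which held 6900 nuclei, so that a share of up to 0.0435% is allowed over all of them when a count of 0 is taken to allow 3 nuclei (counting error only). Their 4 proximal genes summed to 0.0377 to 0.0785 UFIs per 10000 per library, against 5.98 and 4.88 in the 2 libraries with proximal tubule nuclei. The highest sum in any of their nuclei was 8.85.

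The sums on which the rule acted were well spread. In Index frozen 1 the proximal sum of the members ran from 20.5 to 212 UFIs per 10000 with a median of 84.6, and in Index frozen 2 from 20.3 to 181 with a median of 74.7. Their Slc12a1 and Slc12a3 sum had a median of 0 and was 0 in 95 of 164 and 61 of 116 nuclei. Few nuclei lay near the minimum: 4 and 8 members lay between 20 and 25, and of the nuclei that were also under the distal limit 4 and 2 lay between 15 and 20, the highest at 18.3 and 18.1. Of the nuclei over the proximal minimum, 3 and 1 had a distal sum between 10 and 15, and 2 and 4 between 15 and 20.

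A larger class than the distal nuclei carried both sets of transcripts. It held 80 and 76 nuclei over both limits, with a median proximal sum of 70.7 and 52.2 UFIs per 10000 and a median distal sum of 52.0 and 53.9. The distal tubule nuclei proper numbered 9 and 13, with a median distal sum of 98.1 and 104 and a median proximal sum of 4.75 and 5.46. The nuclei over both limits are kept apart from all other classes here.

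**Figure D2:**
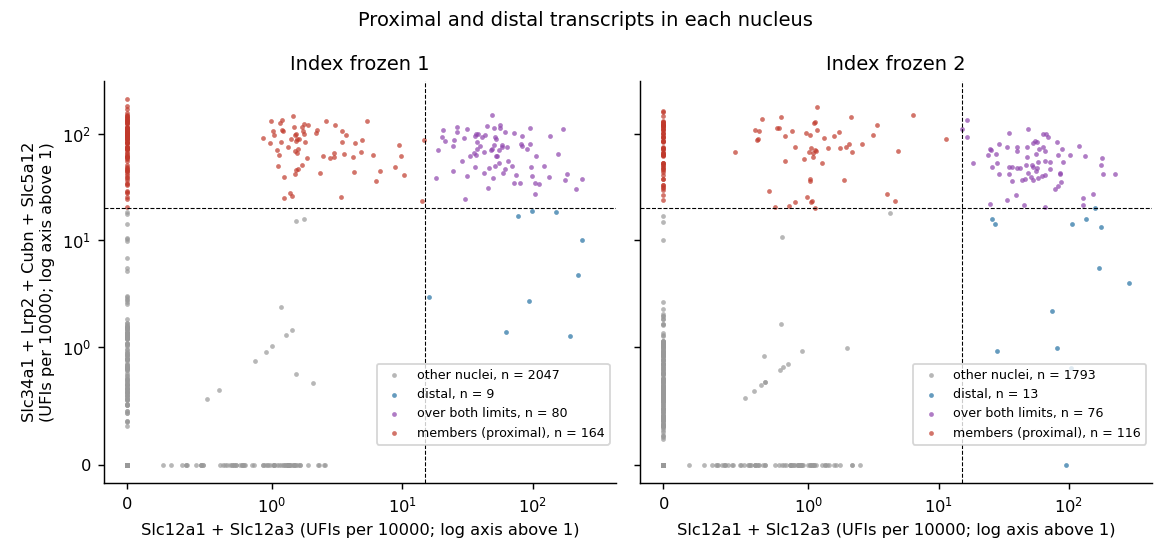
Each point is a nucleus, with the sum of Slc12a1 and Slc12a3 on the x axis and the sum of the 4 proximal genes on the y axis, both in UFIs per 10000 and logarithmic above 1. The dashed lines are the limits of the rule, and the 164 and 116 members lie in the upper left, above the cloud of other nuclei near 0.

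Of the 4 genes of the rule, Slc34a1 (the sodium-phosphate cotransporter of the brush border, GRCm38.p6 chr13:55399622-55414695) stood at 32.1 and 30.1 UFIs per 10000 in Index frozen 1 and 2. It was at 0.0186 and 0.0149 in the nuclei of the 16 brain preindexes. Lrp2 (chr2:69424335-69586029) was at 24.3 and 25.5 against 0.0211 and 0.0251, and Cubn (chr2:13276338-13491876) at 9.07 and 9.40 against 0.0153 and 0.0319. Slc5a12 (chr2:110597299-110649345), a lactate transporter, was at 19.7 and 16.1. These values chose the nuclei and are given as a description. The genes span up to 215539 bases, and introns count, so their levels do not rank them.

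Kap (chr6:133849855-133853667), an androgen-regulated kidney protein, was not used by the rule. It stood at 3.75 and 4.08 UFIs per 10000 in the proximal tubule nuclei, and 4 and 3 UFIs in all were counted in the nuclei of the brain preindexes. It was not particular to the class: the distal tubule nuclei had 2.07 and 2.79, and the 18 and 8 nuclei of neither kind under the same preindexes had 3.28 and 3.65. The short Kap gene was uneven among members, with a median of 1.07 and 1.16 per nucleus, a highest value of 46.6 and 43.3, and 0 UFIs in 79 of 164 and 47 of 116. After thinning every nucleus to 3000 UFIs, 42.1% and 42.2% of members had a Kap UFI, against 0.489% and 0.279% of other nuclei, whose median depths before thinning were 10425 and 14538 UFIs against 7127.5 and 9996.

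**Figure D3:**
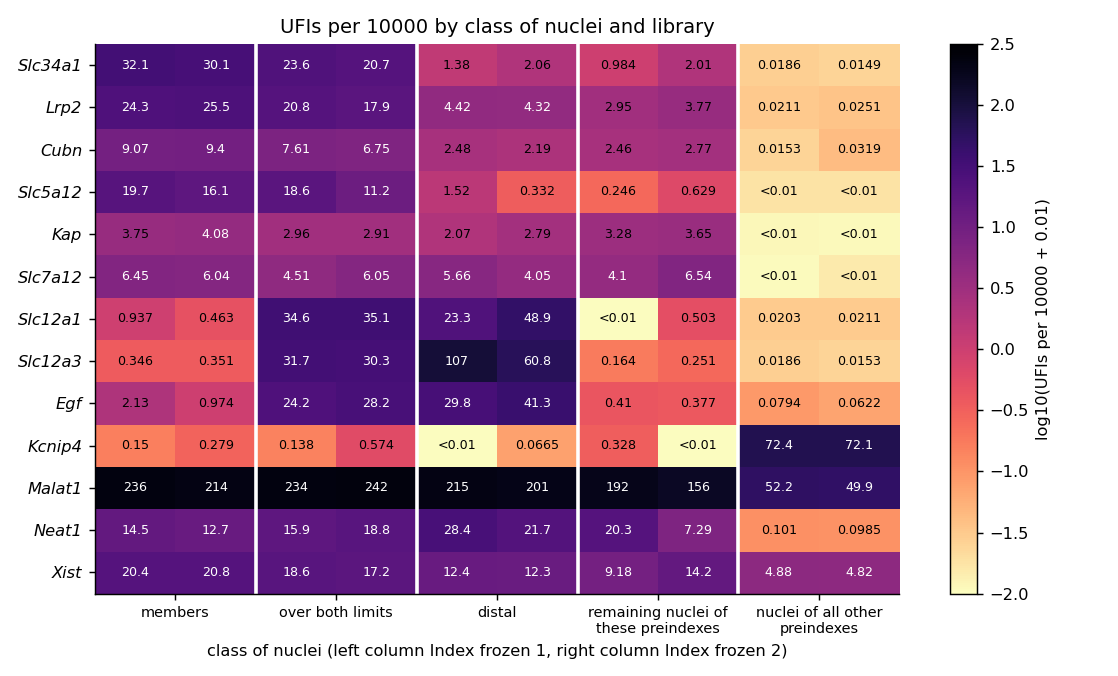
UFIs per 10000 (numbers and colour, on a log10 scale) of 13 genes in 5 classes of nuclei, with Index frozen 1 in the left column and Index frozen 2 in the right column of each class. Slc34a1 and Slc5a12 are high in the members and in the nuclei over both limits, Kap and Slc7a12 in all tubule classes, and Kcnip4 in the nuclei of the other preindexes alone.

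The label of the tissue did not match these nuclei. The 10 neuron genes summed to 2.37 and 2.88 UFIs per 10000 in them and to 272 and 273 in the other nuclei. Kcnip4, which modulates potassium channels, was at 0.150 and 0.279 in proximal tubule nuclei and at 72.0 and 71.9 in other nuclei. Snap25, a part of the synaptic vesicle fusion machinery, had 0 UFIs in the members of Index frozen 1 and 0.0160 per 10000 in those of Index frozen 2. All 10 neuron genes and all 5 tested of 7 oligodendrocyte genes were at least 4-fold lower in both libraries. Of all genes tested, 15.7% were lower and 18.6% were higher by this measure. Of 4 tested astrocyte genes only Slc1a2, the glial glutamate transporter, was 4-fold lower in both, at 0.142 and 0.0718 against 6.52 and 5.73. In the list of choroid plexus and ependyma, the brain cells known to hold Lrp2, 3 genes were higher and 1 was lower. Those higher were Ttr, the folate receptor Folr1 (1.60 and 1.42 against 0.00288 and 0.00406) and Kl (2.22 and 2.87 against 0.0280 and 0.0295), of which Folr1 and Kl are also known from the kidney tubule. Htr2c, the serotonin receptor of the choroid plexus, was at 0.00787 and 0.0160 against 1.67 and 1.58, and Otx2, its defining factor, had 0 UFIs. Of the 10 hepatocyte genes 2 were tested and both were higher, Apob at 0.157 and 0.136 against 0.00123 and 0.000339 and Ttr at 0.220 and 0.311 against 0.0288 and 0.00542, and neither is limited to liver. The list summed to 0.402 and 0.447 against 0.0440 and 0.0142. Alb, Apoa1, Apoa2, Serpina1c and Cyp3a11 had 0 UFIs in the members of both libraries, and Cps1, Fgb and Cyp2c29 had 1 UFI each in Index frozen 1 and 0 in Index frozen 2.

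Across the transcriptome the difference was broad. A gene was tested when it reached 0.1 UFI per 10000 in members or other nuclei of each library, and was called higher or lower when it differed at least 4-fold in both libraries. Of 9648 genes, 1799 were higher in proximal tubule nuclei (18.6%) and 1510 were lower (15.7%). These are counts of folds with no p-value, and no test was run, since the nuclei were chosen on their expression. The median log2 fold over all genes was 0.56 and 0.53. At equal depth the proximal tubule nuclei held more genes than other nuclei. At 3000 UFIs the median was 1641.5 and 1642.5 genes, against 1402 and 1411 in other nuclei. Distal nuclei had 1651 and 1670, and nuclei over both limits 1679.5 and 1696. Mitochondrial UFIs made up 1.03% and 0.951% at the median against 0.455% and 0.440% in other nuclei. In distal nuclei they made up 1.498% and 1.398%, and in nuclei over both limits 0.953% and 1.022%. Neither trait was thus particular to the proximal tubule nuclei. The part of mitochondrial UFIs in the other differences was not tested.

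The 8 lists of proximal tubule functions held 136 genes, of which 123 were tested, and 116 of these were higher than in other nuclei. The 7 others passed in neither direction. The median log2 fold of the 123 genes was 7.42 in Index frozen 1 and 7.76 in Index frozen 2. The lists were drawn up with earlier results of these data known, and 4 of their genes are those of the rule, so their counts are descriptive. Most of the tested genes were under the minimum of 0.1 UFI per 10000 in other nuclei in 1 or both libraries and passed it through the proximal tubule nuclei, where they are high, so that the count is no support for the lists.

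Among the receptors and adaptors of protein uptake, 7 of 8 tested of 10 listed genes were higher. Dab2, the adaptor that links megalin to clathrin, was at 32.0 and 32.9 UFIs per 10000 against 0.141 and 0.0854 in other nuclei. Rab11fip3, which helps to recycle endosomes, was at 13.3 and 13.1 against 1.61 and 1.67. Clcn5, the endosomal chloride-proton exchanger lost in Dent disease, stood at 1.13 and 1.11 against 0.333 and 0.286, under 4-fold.

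Of 17 genes of sodium, phosphate and acid-base transport 13 were higher. Slc4a4, which returns bicarbonate to the blood, was at 33.9 and 33.4 against 4.62 and 4.46. Slc13a1, a sulfate transporter, was at 7.53 and 6.97 against 0.0119 and 0.00644, and Slc13a3, a carrier of dicarboxylates, at 6.58 and 6.59 against 0.0259 and 0.0156. Among the 4 that stayed under 4-fold were the sodium pump subunit Atp1b1 (4.73 and 4.70 against 2.76 and 2.74), the phosphate transporter Slc20a2 (2.35 and 2.13 against 0.642 and 0.652), and the carbonic anhydrase Car4 (0.165 and 0.184 against 0.0650 and 0.0681).

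All 9 sugar and monocarboxylate transporters were higher. The glucose exit transporter Slc2a2 was at 2.70 and 2.34 against 0.00453 and 0.00406. Slc5a10, a carrier of mannose and fructose, was at 4.51 and 4.69 against 0.0263 and 0.0217. The glucose transporter Slc5a2 (SGLT2) stood at 1.04 and 0.878 and had 0 UFIs in other nuclei of both libraries, which makes it at least 842-fold and 864-fold higher with 3 UFIs as the floor of a class.

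All 12 tested of 13 amino acid and peptide transporters were higher. Slc7a8, a light chain of a basolateral neutral amino acid exchanger, was at 7.96 and 6.41 against 0.839 and 0.866. Slc7a7, which carries cationic amino acids to the blood, was at 5.14 and 4.29 against 0.0140 and 0.0122. Slc3a1, the heavy chain mutated in cystinuria, was at 5.12 and 5.40 against 0.0280 and 0.0210. The glutamate transporter Slc1a1, also a neuronal gene, was at 5.00 and 4.65 against 1.01 and 1.06. Slc7a13 was not tested, at 0.0787 and 0.0798.

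Of the organic ion and drug transporters, 19 of 20 tested of 23 were higher. Abcc2, an export pump of the brush border, was at 10.8 and 10.7 against 0.0128 and 0.0142. Abcc4, another export pump, was at 5.64 and 4.96 against 0.458 and 0.445. Slc47a1, which extrudes organic cations, was at 5.22 in both libraries against 0.00947 and 0.00508. Slco4c1 stood at 0.283 and 0.1995 against 0.140 and 0.131, under 4-fold.

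All 10 tested of 12 brush border peptidases were higher, among them Dpp4 at 2.75 and 2.74 against 0.0230 and 0.0193. The metalloprotease Mep1a was at 2.16 and 2.37 against 0.00782 and 0.00542. Ggt1, which splits glutathione, was at 1.94 and 2.00 against 0.00864 and 0.00982.

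Of 32 tested of 37 metabolic enzymes 31 were higher. Ass1, an enzyme of arginine synthesis, was at 12.2 and 11.3 UFIs per 10000 against 0.0975 and 0.0986. Acsm2, which activates medium-chain fatty acids, was at 7.75 and 6.32 against 0.00617 and 0.00610. G6pc, the last step of glucose production, was at 3.08 and 2.71 against 0.00206 and 0.00271.

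All 15 transcription factors of the list were higher. Esrrg, a nuclear receptor tied to oxidative metabolism, was at 52.2 and 49.7 against 4.00 and 3.99. The kidney lineage factor Pax8 was at 5.59 and 6.13 against 0.0284 and 0.0112. Hnf4a, a nuclear receptor of the proximal tubule and the liver, was at 5.03 and 4.24 against 0.0103 and 0.00948. At 3000 UFIs, 70.7% and 62.9% of members and 0.244% and 0.112% of other nuclei had an Hnf4a UFI. Of 9 tested junction and cilium genes 5 were higher. These included Pkhd1 (fibrocystin of the primary cilium) at 27.3 and 26.0 against 0.108 and 0.0742, and Cldn10 at 12.3 and 13.1 against 0.0436 and 0.0447. The other 4 passed in neither direction. Among them, the cadherin Cdh6 was at 1.65 and 1.32 against 0.882 and 0.880, and Pkd1, the polycystin mutated in polycystic kidney disease, at 0.937 and 0.854 against 1.73 and 1.76. The cilium gene Tmem67 was at 0.0866 and 0.208 against 0.283 and 0.273.

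**Figure D4:**
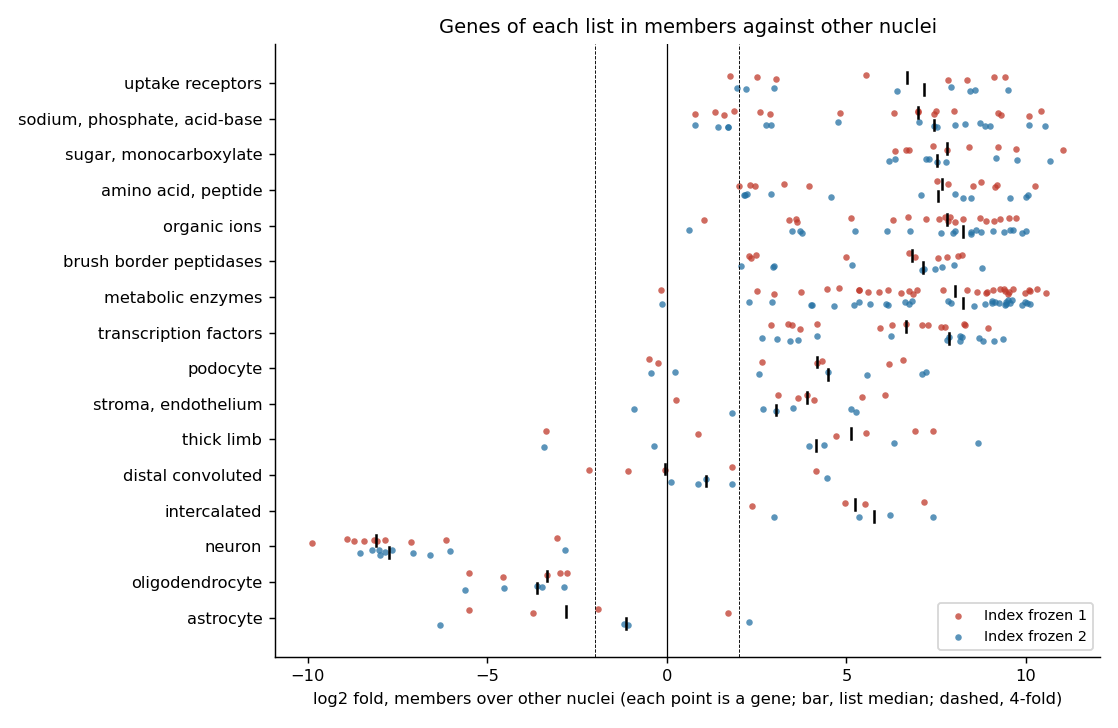
Each point is a gene, placed by its log2 fold in members over other nuclei, in rows by list, with red for Index frozen 1, blue for Index frozen 2 and black bars for the list medians. Genes of the 8 proximal lists lie mostly right of the dashed 4-fold line, with list medians from 6.65 to 8.02 in Index frozen 1, and neuron and oligodendrocyte genes lie left of it.

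Outside the lists, the 15 genes of the largest folds over other nuclei at 2 or more UFIs per 10000, ordered by the lower fold of the 2 libraries, began with Kcnj15, a potassium channel of the tubule, at 1081-fold and 1374-fold. Hnf4aos came next at 1137-fold and 885-fold. It is named as the antisense partner of Hnf4a. The study describes UFIs as strand specific, while the strand setting of the counter is not given in the sources used here, so how far the reads of the pair were kept apart is uncertain. A1cf, a partner of the RNA-editing enzyme of apolipoprotein B, was 698-fold and 555-fold higher, and Gcnt1, a glycosyltransferase, 482-fold and 607-fold. Tmem27 (collectrin, which brings amino acid transporters to the brush border), listed for protein uptake under its newer symbol Cltrn and therefore not counted there, was 673-fold and 474-fold higher. Vdr, the vitamin D receptor, was 432-fold and 381-fold higher. Gpx3, the plasma glutathione peroxidase made by the proximal tubule, stood at 18.3 and 19.0 UFIs per 10000 against 0.0543 and 0.0467, or 337-fold and 406-fold. Tinag, a basement membrane antigen, was 451-fold and 550-fold higher. The others were Mfsd4b5, Gm10804, 0610005C13Rik, Rdh16, Gm19950, Rdh16f2 and Pbld1, between 325-fold and 1152-fold. Rdh16, Rdh16f2 and Mfsd4b5 have close relatives among which reads may be split.

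Of 5 nuclear noncoding RNAs 4 were higher than in other nuclei, a call that 18.6% of all genes tested received. Against distal nuclei 0 of the 5 passed in either direction. The list summed to 261 and 236 UFIs per 10000 in proximal tubule nuclei and to 259 and 234 in distal nuclei. In nuclei over both limits it summed to 260 and 275. Malat1 was at 236 and 214 UFIs per 10000 in proximal tubule nuclei and at 52.9 and 50.2 in other nuclei. Neat1, the scaffold of paraspeckles, was at 14.5 and 12.7 against 0.202 and 0.118, with 5 of 164 and 2 of 116 members at 0. Rmrp, the RNA of a processing ribonuclease, was at 0.528 and 0.551 against 0.0975 and 0.105. Rn7sk stood at 10.3 and 9.39 against 4.00 and 3.80, under 4-fold.

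Most injury genes were at or near 0. Of 13 listed 5 were tested against other nuclei. Spp1 (osteopontin, 0.685 and 0.543 against 0.00453 and 0.0108) and Dcdc2a (1.08 and 1.36 against 0.115 and 0.131) were higher. This call was received by 18.6% of all genes tested. Cd44 (0.394 and 0.303 against 0.195 and 0.225), Il34 (0.118 and 0.136 against 0.179 and 0.167) and Clu (0.0394 and 0.112 against 0.229 and 0.194) passed in neither direction. Of 5 genes tested against distal nuclei 0 were higher and 1 was lower. The list summed to 2.63 and 2.498 UFIs per 10000 in proximal tubule nuclei and to 5.24 and 2.79 in distal nuclei. In nuclei over both limits it summed to 2.4996 and 2.63. Havcr1 (KIM-1), which marks injured proximal tubule, had 0.0315 UFIs per 10000 in the members of the first library and 0 in the second. At 3000 UFIs, 1 of 164 and 0 of 116 members had a Havcr1 UFI, which for the second library allows a UFI in up to 3.13% of nuclei by the exact interval and sets no limit on expression below that depth. Of 10 immediate early and heat shock genes only Egr1 reached the level to be tested, and it was lower, at 0 and 0.0160 against 0.130 and 0.127.

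The distal tubule nuclei lay under preindexes that also held proximal tubule nuclei, apart from 1 preindex of Index frozen 1. Of 8929 genes tested, 90 were higher in proximal tubule nuclei (1.01%) and 182 were lower (2.04%), with a median log2 fold of 0.00 in both libraries. The comparison rests on 9 and 13 distal nuclei with 72452 and 150449 UFIs, so low genes were often at the floor of 3 UFIs. The counts depend on asking for the fold in both libraries, as Index frozen 1 alone gave 137 higher and 447 lower genes and Index frozen 2 alone 220 and 655. When the nuclei over both limits were counted as distal, 9 of 8690 genes were higher (0.104%) and 115 were lower (1.32%).

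Of the 123 tested genes of the 8 proximal lists 34 were higher than in distal nuclei and 1 was lower, with a median log2 fold of 1.33 and 1.75. Distal nuclei lie under the proximal minimum and the lists hold the genes of the rule. The direction is thus in part fixed by the rule, and the count is descriptive. With the nuclei over both limits counted as distal, 0 of 124 were higher and 2 were lower, with a median of 0.40 and 0.55. In metabolism Ass1 was at 12.2 and 11.3 UFIs per 10000 against 0.552 and 1.60 in distal nuclei, and Acsm2 at 7.75 and 6.32 against 0.690 and 0.665. In transport Slc47a1 was at 5.22 against 0.414 and 0.598, and Slc13a3 at 6.58 and 6.59 against 0.690 and 0.798. The exception was Fxyd2, a subunit of the sodium pump known from both parts of the nephron, at 0.921 and 0.846 against 4.55 and 7.84. None of the 10 tested brush border peptidases passed, and among transcription factors only Hnf4g and Maf did. Esrrg was at 52.2 and 49.7 in proximal and 70.1 and 58.4 in distal nuclei, and Pax8 at 5.59 and 6.13 and at 3.86 and 2.86. Hnf4a was at 5.03 and 4.24 against 0.414 and 1.26, past 4-fold in the first library alone.

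Outside the lists, genes were ordered by the lower fold of the 2 libraries over distal nuclei, and Rhobtb1 came first at 16.6-fold and 13.5-fold. The transcription factor Bnc2 was at 20.3 and 19.97 UFIs per 10000 against 1.24 and 1.73, and the oxidase Nox4, an abundant source of hydrogen peroxide in kidney, at 18.4 and 17.3 against 1.52 and 0.465. Ndrg1, a stress-responsive gene, was at 29.6 and 30.6 against 1.52 and 3.59. Timp3, an inhibitor of matrix proteases, was at 21.7 and 22.4 against 3.04 and 2.53. C330002G04Rik, 4921539H07Rik, Kcnk5, Gm37245 and Unc5c completed the 10. Unc5c, a netrin receptor, was at least 7.76-fold and 13.1-fold higher than in distal nuclei but stood at 3.21 and 2.61 against 7.01 in the other nuclei of both libraries.

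In the other direction, the thick limb list had 6 of 7 tested genes lower and the distal convoluted list 5 of 6, as the rule itself uses Slc12a1 and Slc12a3. With the nuclei over both limits counted as distal these were 7 of 8 and 2 of 6. Umod, the most abundant protein of urine, was at 0.693 and 0.192 against 8.97 and 6.78, and Egf at 2.13 and 0.974 against 29.8 and 41.3. Klhl3, a regulator of salt transport, was at 1.68 and 1.93 against 15.2 and 9.70. Outside the lists, Abca13 was at 0.472 and 0.750 UFIs per 10000 against 38.6 and 17.8 in distal nuclei, and the calcium channel subunit Cacnb4 at 0.488 and 0.439 against 20.01 and 15.6. Tenm2, an adhesion protein best known from synapses, was at 0.197 and 0.112 against 5.11 and 5.78, and Slc16a7, a pyruvate transporter, at 0.787 and 0.926 against 16.98 and 12.3. Tmem72, Lnx1, Tox3, Sfrp1, Sgcz and Kctd1 completed the 10, from 12.0-fold to 27.1-fold higher in distal nuclei.

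Some proximal tubule nuclei also carried transcripts of other kidney cells. In Index frozen 1, 38 of 164 had at least 20 UFIs per 10000 on a list of another kidney cell or in Slc8a1, and in Index frozen 2, 28 of 116. The podocyte list reached 20 in 8 members of each library, with a highest sum of 203 and 216. The distal convoluted list reached it in 7 and 11, with a highest sum of 95.3 and 586, and the thick limb list in 9 and 1. The list of stroma and endothelium reached it in 11 and 5, that of intercalated cells in 4 and 4, and that of principal cells in 1 and 2. These 38 and 28 nuclei had a median proximal sum of 60.3 and 49.3 UFIs per 10000, against 92.0 and 90.7 in the other 126 and 88.

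Summed over all members, some genes of these lists were at least 4-fold higher than in other nuclei, a call that 18.6% of all genes tested received. Slc4a9, Emcn and Scnn1b, among others, were under the minimum of 0.1 UFI per 10000 in other nuclei. They passed it through the members, so the counts are descriptive and no support for the lists. Of 7 podocyte genes 5 were at least 4-fold higher, with Podxl, which coats the podocyte foot processes, at 2.09 and 2.63 against 0.116 and 0.118. Without the 38 and 28 nuclei Podxl was at 0.388 and 0.224. Ptpro (1.25 and 1.68 against 1.50 and 1.44) and Synpo (0.394 and 0.439 against 0.555 and 0.593), which neurons also hold, passed in neither direction. Of 7 tested genes of stroma and endothelium 5 were higher, with Emcn at 0.874 and 0.742 against 0.0202 and 0.0213, as were all 4 tested of intercalated cells, with Slc4a9 at 0.591 and 0.631 against 0.00412 and 0.00373. The intercalated list was at 0 in 150 of 164 and 98 of 116 members, so a few nuclei carried its sum. The sodium channel subunit Scnn1b of principal cells was at 0.457 and 0.862 against 0.00905 and 0.00474. Of 6 tested thick limb genes 4 were higher and 1, Ppp1r1b, was lower, with Egf at 2.13 and 0.974 against 0.0811 and 0.0630. Without the 38 and 28 nuclei, which were set apart by these same lists, Emcn was at 0.378 and 0.459, Slc4a9 at 0.143 and 0.128, Scnn1b at 0.163 and 0.288, and Egf at 0.807 and 0.95. Of 5 tested distal convoluted genes only Slc12a3 was higher, and the list summed to 7.97 against 13.7 UFIs per 10000 in Index frozen 1 and to 25.5 against 13.7 in Index frozen 2. Slc8a1, the sodium-calcium exchanger of the distal nephron, stood apart between the libraries at 2.34 and 19.1. A single nucleus of Index frozen 2 held 558 per 10000, and without the 38 and 28 nuclei Slc8a1 was at 0.797 and 0.705. The doublet status of these nuclei was not tested.

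The members also differed among themselves. At 3000 UFIs, 560 of 6329 genes had a variance at least 1.5 times their mean in both libraries, where the median ratio over genes was 1.11 and 1.10. The members with transcripts of other kidney cells were included. Podxl had ratios of 12.2 and 15.9 and Slc8a1 of 7.81 and 96.3. The part of those nuclei in the count was not tested. After the mitochondrial ribosomal RNAs and Gm42418, a locus overlapping ribosomal RNA, the most uneven genes by the lower ratio of the 2 libraries were Magi2, a scaffold protein, and Ghr, the growth hormone receptor, with ratios of 18.8 and 18.2 for Ghr. Of the genes of the rule, Slc5a12 had ratios of 6.87 and 6.27 and Slc34a1 of 3.94 and 4.77. Slc7a12, an amino acid transporter of the late proximal tubule that is known to be higher in females, had 7.06 and 4.86.

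Slc5a12, an S1 gene, and Slc7a12 tended to be high in different nuclei. Across members the levels of both genes before thinning were compared by Spearman rho. It was -0.49 in Index frozen 1 (n = 164) and -0.48 in Index frozen 2 (n = 116). These correlations across nuclei of a library are descriptions. Slc5a12 is a gene of the rule, so a member low in it had to reach the minimum through the other genes of the rule. The part of this choice in the values of Slc5a12, here and below, was not tested. At 3000 UFIs Slc7a12 was found in 21.2% and 25.7% of the members with a Slc5a12 UFI and in 64.7% and 57.1% of those without. The median depths before thinning were 7171 and 10078 UFIs against 7071 and 9702. In numbers, 89 and 55 members had Slc5a12 alone, 33 and 24 had Slc7a12 alone, 24 and 19 had both, and 18 and 18 had neither.

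Slc5a12 went together with other genes of the S1 list. Slc6a19, which takes up neutral amino acids, had a rho of 0.68 and 0.77 with it, and Slc7a7 of 0.66 and 0.65. The glucose pair Slc5a2 and Slc2a2 had 0.52 and 0.61, and 0.51 and 0.41. Slc4a4 had 0.52 and 0.60. Slc34a1, a gene of the rule, had 0.50 and 0.65 with Slc5a12 and -0.62 and -0.61 with Slc7a12. Of the 6 genes of the S3 list, 2 had a rho of at least 0.5 with Slc7a12 in both libraries. Atp11a, a lipid flippase, had a rho of 0.82 and 0.83 with it, and the organic anion transporter Slc22a19 of 0.82 and 0.81. The other 4 had lower values, Slc22a30 0.24 and 0.37, Slc5a1 0.25 and 0.06, Slc7a13 0.17 and 0.21, and Cyp7b1 0.06 and 0.17. Kap had 0.76 and 0.78 with Slc7a12 and -0.38 and -0.45 with Slc5a12. Aadat, a kynurenine aminotransferase, had 0.75 and 0.77, and the neutral amino acid transporter Slc6a18 0.71 and 0.76. Lrp2, a gene of the rule, had weaker values of 0.30 and 0.27 with Slc7a12 and -0.13 and -0.03 with Slc5a12.

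**Figure D5:**
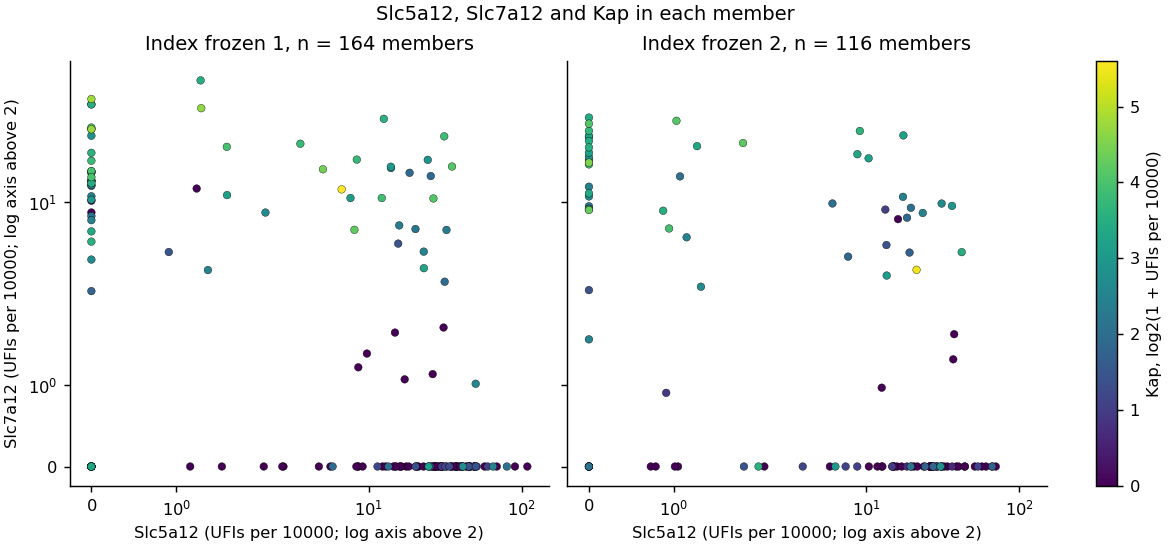
Each point is a proximal tubule nucleus, with Slc5a12 on the x axis and Slc7a12 on the y axis, both in UFIs per 10000 and logarithmic above 2, and colour for Kap. Most nuclei lie on or near an axis, and those high in Slc7a12 tend to be high in Kap.

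Among 1898 genes with a mean of at least 0.3 UFI after thinning to 3000, those most like Slc7a12 by the lower rho of the 2 libraries were Rnf24 (rho 0.81 and 0.80), Gm43158 (0.80 and 0.80), Atp11a, Aadat and Ghr (0.74 and 0.74). These values are on thinned counts and are not on one scale with those above, which used unthinned UFIs per 10000. For Slc5a12 they were Nox4 (0.61 and 0.67), Slc7a7, Itpr2 (0.53 and 0.63), Bnc2 (0.51 and 0.54) and Slc4a4. A rho of at least 0.5 in both libraries was found for 21 genes with Slc7a12 and for 5 with Slc5a12, where the median over all 1898 genes was -0.00 and -0.01, and 0.01 and 0.01. All points of a library share its preparation, and the rho of Slc5a12 with the depth of a nucleus was 0.10 and 0.07.

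The S1 list holds Slc5a12, on which the nuclei were chosen, so its share in members is in part fixed by the rule. At 3000 UFIs 99.4% and 99.1% of members had a UFI of an S1 gene, 76.8% and 79.3% of an S2 gene and 70.1% and 66.4% of an S3 gene. In other nuclei the shares were 44.02% and 45.01%, 1.07% and 1.00%, and 39.2% and 36.6%. Single genes of the lists were found in fewer nuclei of both classes. The S1 gene Slc5a2 was found in 23.2% and 19.0% of members and in 0 of 2047 and 0 of 1793 other nuclei. Slc22a8 (an organic anion transporter of S2) was found in 52.4% and 53.4% against 0.391% and 0.502%, and Slc22a6 in 39 of 164 and 29 of 116 against 0.147% and 0.112%. Atp11a of the S3 list was found in 65.2% and 61.2% against 24.4% and 23.3%. Slc7a13, an S3 gene known to be higher in male mice, was found in 1 of 164 and 4 of 116 members. Cyp7b1, also on the S3 list, stood at 0.150 and 0.247 UFIs per 10000 against 0.840 and 0.789 in other nuclei.

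Genes known to differ between the sexes in mouse kidney gave the following values. Of the female list all 4 genes were higher than in other nuclei, a call that 18.6% of all genes tested received. Slc7a12 was at 6.45 and 6.04 UFIs per 10000 against 0.0214 and 0.0230, and Prlr, the prolactin receptor, at 5.70 and 6.31 against 0.202 and 0.234. Cyp4a14, a fatty acid hydroxylase, was at 0.842 and 1.39, and the export pump Abcc3 at 0.472 and 0.375. Of the 5 genes of the male list 3 were tested and all 3 were higher, namely Kap, Slc22a30 (0.685 and 0.670) and Cyp4b1 (0.118 and 0.112). Cyp2j13 was not tested. Against distal nuclei none of the 4 female genes and none of the 3 tested male genes passed in either direction. Slco1a1, a steroid conjugate transporter known from male kidney, had 0 UFIs in all 164 and 116 members. At 3000 UFIs this allows a UFI in up to 2.22% and 3.13% of nuclei by the exact interval and sets no limit on expression below that depth.

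The RNA of X inactivation, Xist, was at 20.4 and 20.8 UFIs per 10000 in proximal tubule nuclei and at 4.91 and 4.84 in other nuclei. At 3000 UFIs it was found in 97.0% and 97.4% against 67.7% and 68.2%. In the whole libraries Xist ran from 4.56 to 6.21 UFIs per 10000 over all 7 brain libraries, and the Y-linked genes Ddx3y, Uty, Kdm5d and Eif2s3y together had 26 to 97 UFIs per library. In the proximal tubule nuclei Uty was at 0.0236 and 0.0239 per 10000, Kdm5d at 0.00787 and 0.00798, and Ddx3y and Eif2s3y at 0. The Xist and Y-linked values of the 7 libraries do not match the males named in the methods. The sex of the animals was not tested otherwise.

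Promoters of the genes higher in these nuclei were searched for the letters of 2 motifs known from kidney and liver promoters. Sequences were those of RefSeq for GRCm38.p6, from 250 bases before to 50 bases after the start of 27025 genes, and both strands were searched. The start used for a promoter can differ from the gene start given above, as it does for Slc34a1. The letters GTTAATNAT, a short form of the HNF1 motif, occurred in 254 promoters (0.940%). Of the 1799 genes higher than in other nuclei 1346 had a promoter under the same symbol, and 27 of these held the letters (2.01%), as did 23 of 5998 of the other tested genes (0.383%). The half-site GTTAAT, which the longer motif contains, occurred in 8.24% of all promoters, 10.3% of the higher genes and 5.30% of the others. The letters CAAAGTCCA, a form of the HNF4 motif, occurred in 0.555%, 1.11% and 0.3001%. The higher genes were picked from these same data, and the letters were chosen after the values were seen. A longer form of the HNF1 motif had been searched first. The shares are therefore descriptive. A match is a run of letters and no site of binding.

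Of 143 genes of the proximal, segment and sex lists 113 had a promoter in the table and 3 held GTTAATNAT. They are shown with the matches of this motif and of its half-site in capitals. Tmem27, for which RefSeq uses the symbol Cltrn, holds it 54 bases before the start (chrX:164089937-164090236, plus strand). G6pc holds it 221 bases before the start (chr11:101367466-101367765, plus strand). Slc22a29, an organic anion transporter at 1.60 and 1.405 UFIs per 10000 against 0.00617 and 0.00711, holds it 32 bases before the start (chr19:8218851-8219150, minus strand). The promoter of Slc34a1 (chr13:55399398-55399697, plus strand) holds 2 half-sites and is shown as that of a gene of the rule.
Tmem27: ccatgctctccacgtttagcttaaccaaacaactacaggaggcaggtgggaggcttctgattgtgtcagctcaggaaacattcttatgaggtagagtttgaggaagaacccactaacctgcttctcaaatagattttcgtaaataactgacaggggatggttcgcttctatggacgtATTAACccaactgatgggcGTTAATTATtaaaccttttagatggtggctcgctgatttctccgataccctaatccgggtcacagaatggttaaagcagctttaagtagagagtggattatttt
G6pc: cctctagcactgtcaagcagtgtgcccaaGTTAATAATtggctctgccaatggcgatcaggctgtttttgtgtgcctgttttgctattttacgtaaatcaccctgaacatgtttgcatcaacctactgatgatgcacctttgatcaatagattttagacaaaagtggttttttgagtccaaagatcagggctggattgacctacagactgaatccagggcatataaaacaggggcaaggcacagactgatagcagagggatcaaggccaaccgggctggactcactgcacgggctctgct
Slc22a29: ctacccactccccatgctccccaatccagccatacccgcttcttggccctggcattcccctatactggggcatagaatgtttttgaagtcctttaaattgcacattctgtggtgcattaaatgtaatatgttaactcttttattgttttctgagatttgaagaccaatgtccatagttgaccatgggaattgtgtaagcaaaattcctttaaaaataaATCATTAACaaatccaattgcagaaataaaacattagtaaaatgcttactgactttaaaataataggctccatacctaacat
Slc34a1: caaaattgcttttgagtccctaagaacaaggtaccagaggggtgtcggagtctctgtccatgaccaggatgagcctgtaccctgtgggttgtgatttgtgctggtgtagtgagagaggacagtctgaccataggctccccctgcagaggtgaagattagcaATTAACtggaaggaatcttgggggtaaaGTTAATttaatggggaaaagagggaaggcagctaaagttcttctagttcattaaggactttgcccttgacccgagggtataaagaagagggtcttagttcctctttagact
None of these letters were found in the same window of Lrp2, Cubn and Kap, which says nothing of the factors themselves. Tmem27 stood at 2.77 and 2.57 UFIs per 10000 in proximal tubule nuclei, 0.276 and 0.266 in distal nuclei and 0.00412 and 0.00542 in other nuclei.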

How the data were processed

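The files hold raw UFI counts of nuclei by gene, deposited by the authors as whole numbers. The submitters' processing notes name cutadapt, UMI-tools, STAR, featureCounts and Scanpy and the builds GRCh38, GRCm38 and mm10 with no role given, and genes were used by symbol. Whole genes were counted, introns included. Nuclei were scaled to 10000 UFIs, classed by the rule, and summed by class and library with Python 3.11.15, numpy 2.4.6, scipy 1.17.1 and pandas 2.3.3. All deposited nuclei were kept, and no doublet caller was run. The floor was 3 UFIs per class and library, a gene needed 0.1 UFI per 10000 in each library, and thinning drew 3000 UFIs with a fixed seed. In any list, a gene under this minimum in 1 class passed it through the class where it is high. Counts of list genes are therefore descriptive.

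The members and lists were chosen with earlier results of these data known. Named genes are those of the rule, Kap, the leading and the divergent genes of each list, the 15 largest folds over other nuclei and the 10 largest in each direction against distal nuclei, at 2 or more UFIs per 10000. The gene pair for likeness and the motif letters were chosen after the values were seen, and a longer form of the HNF1 motif had been searched first. Nuclei over both limits were kept out of the other nuclei, and their inclusion was added as an alternative. Of 271 listed genes 266 were in the files. Some genes that meet the rule for named genes are not reported here. The computation was tested on simulated data.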

Additional observations from a re-analysis of the deposited data

How the results depend on the processing

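No paired analysis was possible because the results come from no test: each value is given within each library, and the nuclei were chosen on the expression that a test would use. The share of proximal tubule nuclei, averaged over the 2 libraries, was 6.47%. It became 5.50% with a proximal minimum of 40, 5.49% without Lrp2 in the sum and 10.1% without the distal limit, and was 5.81% and 7.13% in the single libraries. Genes per nucleus, 1642 at 3000 UFIs, were 1227 at 2000 UFIs and 2302 at 5000 UFIs. The share with an S1, S2 or S3 gene, 99.3%, 78.1% and 68.3%, was 100%, 85.4% and 79.9% at 5000 UFIs and 100%, 89.6% and 89.5% without thinning. Without the nuclei rich in transcripts of another kidney cell, an alternative added after seeing the data, it was 100% for S1 and 83.7% for S2. The 1799 genes higher than in other nuclei became 3178 at 2-fold, 1198 at 8-fold and 945 with a minimum level of 0.5, and the 1510 lower genes 1004 at 8-fold and 921 with that level. They were 2061 to 2081 and 1628 to 1632 with either library left out. Counting the nuclei over both limits as other nuclei gave 1684 and 1479. Against distal nuclei, the 90 higher genes became 358 at 2-fold, 14 at 8-fold, 9 with the nuclei over both limits as distal (added after seeing the data), and 137 to 220 with either library left out. The 182 lower genes became 493, 66, 115 and 447 to 655 under the same settings. The main counts against distal nuclei rest on few distal nuclei, and the causes of these changes were not tested. The values not given here moved by less than the spread between the libraries or, for counts of genes, by less than 1.5 times.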
